A study of Tursiops truncatus with 28 samples.

Results

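The faint loci of bottlenose dolphin skin are the intervals of the genome that gave RNA at a low mean level and a value above 0 in most animals. They were chosen from a table of 24091 loci by 5 criteria: not on the mitochondrial sequence, a length of at least 1000 bases, a mean over the 28 libraries of at least 0.2 and under 1 FPKM, a value above 0 in at least 20 libraries, and not listed at 0 in 5 or more libraries while at 1 FPKM or more in 5 or more others. FPKM counts RNA fragments relative to the length of the transcript and to the mapped fragments of the library. The first criterion left 24055 loci and the length 21436. Of these 15844 had a mean of at least 0.2 FPKM, 3246 of them a mean under 1 FPKM, and 2732 of those were above 0 in 20 libraries or more. The last criterion left out 52, so 2680 faint loci remained, which was 11.1% of the table. The mean, the number of zeros and the number of high values chose them, so level and detection are given below as a description with no test.

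The 28 libraries were made from stored skin of wild common bottlenose dolphins (Tursiops truncatus) of Barataria Bay, Louisiana, 1 library per animal, taken during health assessments. In July 2016 9 females were sampled, in June 2017 8 females and 3 males, and in September 2017 5 females and 3 males. No male was sampled in 2016, so comparisons with July 2016 rest on females and on a sex effect measured in 2017, and for July 2016 year and month cannot be told apart. The labels give no age, reproductive state or health of the animals and no sequencing batch.

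Barataria Bay was oiled after the Deepwater Horizon spill, and its dolphins have been followed by capture and release health assessments since. Dolphin skin is a thick, hairless epidermis without sweat or sebaceous glands, whose keratinocytes divide at the base and are shed at the surface, over a dermis with fibroblasts, vessels, nerves and immune cells. In bulk tissue a low mean level can come from a few cells with much RNA of a locus or from many cells with little, and fewer cells of a type and less RNA per cell cannot be told apart. The table names each row by scaffold and interval only. None of its 359 sequence names occurred in the gene table used here, which describes another assembly, with 0 matches. The loci therefore carry no gene name here, skin markers were not checked, and no sequence is shown.

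On a log10 scale the faint loci lay on a nearly flat stretch of the distribution of mean levels, between the large group of expressed loci and a tail of loci near 0. Below them were 4033 nuclear loci of the same minimum length below 0.2 FPKM on average and not at 0 throughout. Above them were 3524 loci of 1 to 5 FPKM and 9074 of 5 FPKM or more. These other classes were set by nuclear position, length and mean alone, without the criteria on zeros. Within their range, 1019 faint loci had a mean of 0.2 to 0.4 FPKM, 719 of 0.4 to 0.6, 519 of 0.6 to 0.8 and 423 of 0.8 to 1 FPKM. In all, 1942 (72.5%) were above 0 in every library, and 738 were listed at 0 in 1 to 8 libraries. The share listed at 0 somewhere was 41.3% at means of 0.2 to 0.4 FPKM and 15.1% at means of 0.8 to 1.0 FPKM.

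**Figure D1:**
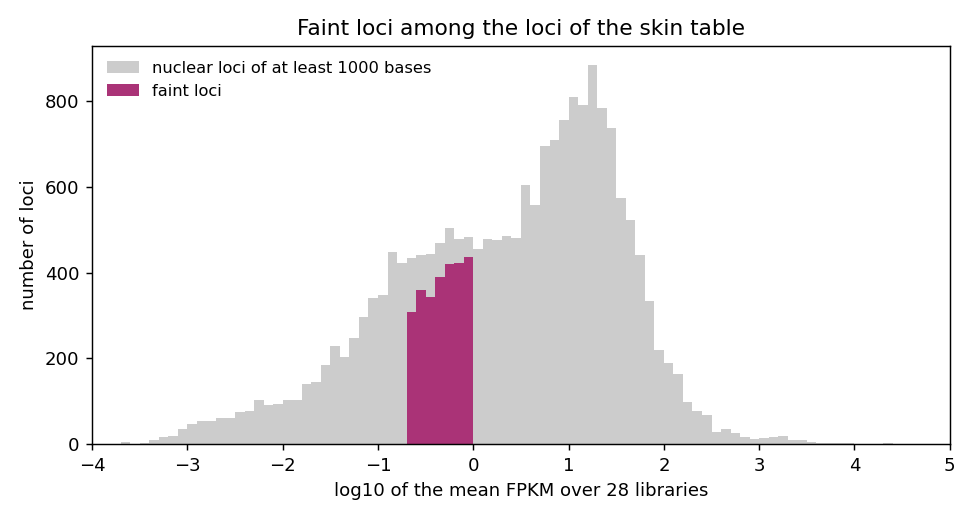
Number of nuclear loci of at least 1000 bases (vertical axis) by the log10 of the mean FPKM over 28 libraries (horizontal axis), with the 2680 faint loci in dark colour in front of all such loci in grey. The faint loci fill the range from 0.2 to 1 FPKM, below the main peak of expressed loci.

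Both thresholds fall within a continuous range of levels. The members just inside the lower one lay at positions 5460097 to 5461975 of scaffold NW_017844507.1, with a mean of 0.20003 FPKM, and at positions 53484315 to 53517769 of scaffold NW_017842696.1, with 0.20042 FPKM. The loci just outside it lay at positions 7373342 to 7381291 of NW_017842131.1, with 0.19998 FPKM, and at 642392 to 645408 of NW_017842906.1, with 0.19995 FPKM. At the upper threshold the members at 2584006 to 2596865 of NW_017842545.1 and at 87199486 to 87269200 of NW_017844625.1 had means of 0.99998 and 0.99981 FPKM. The loci at 678571 to 688007 of NW_017843467.1 and at 4491882 to 4493917 of NW_017842229.1 were just outside, with 1.00024 and 1.00058 FPKM. The first of the members inside the lower threshold was high in a pair of libraries: July 2016 female 9 held 1.74 FPKM and September 2017 female 2 held 1.73 FPKM, while its median over sessions stayed between 0.0605 and 0.0959 FPKM. This member overlaps a locus with a mean of 11.0 FPKM, and whether they share fragments cannot be told.

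In the genome, the faint loci lay on 189 scaffolds. Scaffolds NW_017842131.1 and NW_017844429.1 held the most, 96 each, out of 674 loci (14.2%) and 805 loci (11.9%). Over the 71 scaffolds with 100 loci or more, the share of faint loci ran between 4.28% on NW_017843449.1 and 16.8% on NW_017842757.1. In genome order 25.3% of the faint loci had a faint locus as a direct neighbour, against 21.6% of loci of 1 to 5 FPKM and 19.4% of loci of 5 FPKM or more. In all, 2003 faint loci stood alone between other loci, and the longest run of neighbours was 6 on scaffold NW_017844023.1, at positions 1528863 to 1772326, with means between 0.283 and 0.567 FPKM and no overlap with another locus.

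The median faint locus spanned 13442 bases, with quartiles at 4573 and 45083 bases. Loci of 1 to 5 FPKM had a median of 16986 bases, those of 5 FPKM or more 19923 and those under 0.2 FPKM 10156, so length grew with level across the table. The shortest faint locus, at positions 3333618 to 3334617 of NW_017844458.1, spanned 1000 bases, which is the minimum the selection allowed. The longest, at 11151855 to 12133159 of NW_017843453.1, spanned 981305 bases and held 0.580 ± 0.375 FPKM (SD, n = 28). The median distance to the nearest locus of 5 FPKM or more was 20220 bases for the 2663 faint loci with such a locus on their scaffold, against 14702 bases for loci of 1 to 5 FPKM and 30949 for loci under 0.2 FPKM.

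Overlap with another locus was about as frequent as elsewhere, at 653 faint loci (24.4%) against 28.6% of loci of 1 to 5 FPKM and 25.5% of loci of 5 FPKM or more. Of the 653, 342 overlapped a locus of 1 FPKM or more, and 273 lay wholly inside another locus. The libraries keep strand but the row names carry none, so whether overlapping loci share fragments cannot be told here. Across the 28 libraries, the log2 level of the faint locus and that of its most abundant partner had a median Pearson r of 0.0316 over these 342 pairs, and 1 pair reached 0.5. Adjacent faint loci that did not overlap had a median r of 0.0769 over 324 pairs, where all pairs of faint loci had 0.00637. These values describe libraries that share depth and composition, and no test was made.

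Together the faint loci took a mean of 0.152% of a library's summed FPKM. Their sum was 1343 ± 53.8 FPKM in July 2016 (SD, n = 9), 1392 ± 102 in June 2017 (n = 11) and 1467 ± 63.2 in September 2017 (n = 8). The lowest and highest libraries were 1240 and 1411 FPKM in July 2016, 1264 and 1646 in June 2017 and 1396 and 1565 in September 2017, so the sessions overlapped. The highest sum of all, 1646 FPKM, belonged to June 2017 male 3, and without it the June 2017 sum was 1367 ± 61.3 FPKM (n = 10). By sex, the sum was 1480 ± 117 FPKM in males (n = 6) and 1375 ± 69.4 FPKM in females (n = 22), of which 9 were the July 2016 animals. Without the 270 loci at which 1 library held 25% or more of the total, it was 1310 ± 101 FPKM in males and 1279 ± 63.9 FPKM in females. That limit was chosen after the values were seen.

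Sessions of greater mean depth had fewer zeros, and single libraries departed from that order. Read totals are not in the table. The ratio of low values between libraries put depth, relative to the average, at 0.761 in the shallowest and 1.48 in the deepest library, 1.94-fold apart. It averaged 1.04 in July 2016, 0.924 in June 2017 and 1.11 in September 2017, and faint loci were listed at 0 in 2.76%, 3.19% and 1.82% of cases in those sessions. The deepest library, September 2017 female 1, had the fewest zeros, 0.896% of the faint loci, and June 2017 male 2 the most, 4.37%, at a depth of 0.980, the median of all libraries. June 2017 female 2, at a depth of 0.783, had 2.76%. September 2017 was thus the session with the highest sum, the greatest mean depth and the fewest zeros. The part of depth in the sum was not tested.

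**Figure D2:**
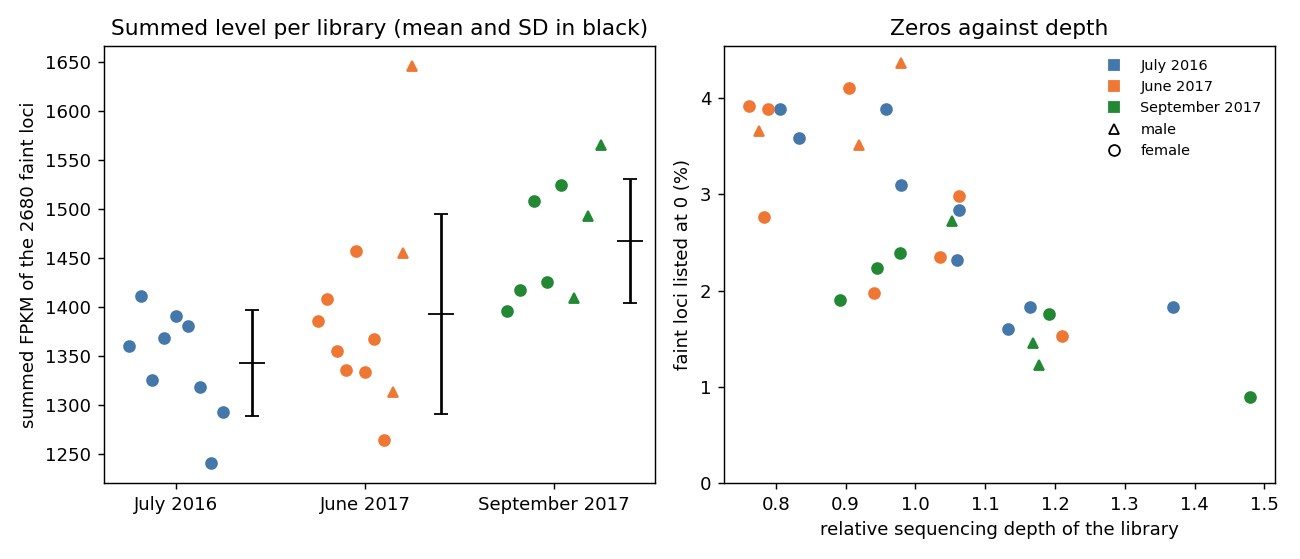
Left, summed FPKM of the 2680 faint loci in each library by session, with the session mean and SD in black (the vertical axis does not start at 0). Right, percent of the faint loci listed at 0 against relative sequencing depth; triangles are males and circles females. June 2017 male 3 stands highest on the left with 1646 FPKM, and the deepest library has the fewest zeros on the right.

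A faint locus differed widely between animals. The median coefficient of variation (SD over mean, in FPKM) over the 28 libraries was 0.883, against 0.460 for loci of 1 to 5 FPKM, 0.202 for loci of 5 FPKM or more and 2.33 for loci under 0.2 FPKM. It was 1.04 at means of 0.2 to 0.4 FPKM and 0.717 at means of 0.8 to 1.0 FPKM. Although every mean was under 1 FPKM, 2330 faint loci (86.9%) reached 1 FPKM in at least 1 library, and the highest single value was 14.4 FPKM.

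The extremes of this spread are a long, even locus and a short, uneven one. The least variable member on the log2(FPKM + 0.1) scale, at positions 60494638 to 60591052 of NW_017842794.1, held 0.342 ± 0.102 FPKM in July 2016 (SD, n = 9), 0.279 ± 0.0797 in June 2017 (n = 11) and 0.266 ± 0.0881 in September 2017 (n = 8). All its values lay between 0.158 and 0.542 FPKM. The most variable, at 302241 to 303590 of NW_017843191.1, held 1.21 ± 1.28, 0.958 ± 1.2 and 0.506 ± 0.922 FPKM in the same sessions (SD, n = 9, 11 and 8). It was listed at 0 in 2 June 2017 and 2 September 2017 libraries, and 1 July 2016 library reached 3.52 FPKM. This locus overlaps another, with a mean of 0.718 FPKM.

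Part of such spread is counting error, and the table allows its size to be estimated. At 1877 faint loci (70.0%) the lower values lay on whole multiples of a step, the value of a single fragment once relative depth is divided out. The median step was worth 0.0218 FPKM at mean depth. These loci were the fainter ones, with a median mean level of 0.422 FPKM, against 0.637 FPKM at the 803 loci without a step, for which no number of fragments was estimated. The loci with a step held a median of 11.5 steps per library, and 820 of them (43.7%) held fewer than 10. Random counting of that many fragments gives a median coefficient of variation of 0.295, whereas these loci had 0.983. The observed value was at least 2 times that of counting at 1822 loci (97.1%) and at or below it at 2.

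The gap to counting error was seen at all numbers of steps. Counting error was taken at the median steps, whereas the observed coefficient of variation uses the mean. The loci were chosen by a mean of at least 0.2 FPKM, so those with few median steps can pass through a few high libraries. Their spread is then raised by the choice, and the size of that effect was not tested. At the 349 loci with fewer than 5 steps the median coefficient of variation was 1.60 where counting gives 0.577. At the 491 loci with 10 to 20 steps it was 0.910 where counting gives 0.267, and at the 142 loci with 40 steps or more it was 0.653 where counting gives 0.144. The median ratio of observed to counting was 2.77, 3.39 and 4.67 in these 3 ranges. The estimate takes each step as 1 independent fragment, and copies of 1 molecule made during library preparation cannot be told apart from separate molecules in this table. The libraries come from different animals, so the spread beyond counting holds animal, sampling and preparation together.

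**Figure D3:**
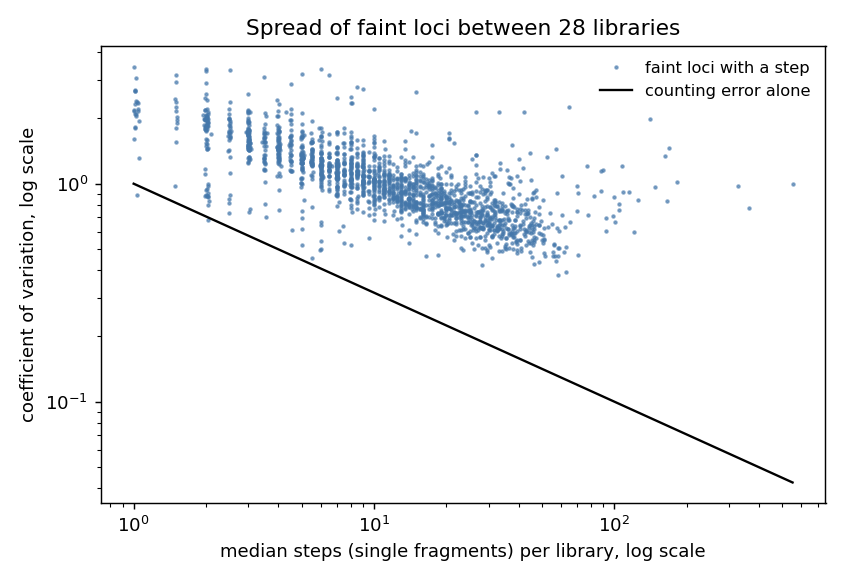
Coefficient of variation over 28 libraries (vertical axis, log scale) against the median number of steps per library (horizontal axis, log scale) for each of the 1877 faint loci with a step, with the value that counting alone gives as a black line. Nearly all points lie above the line, 1822 of them by at least 2 times.

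Between June 2017 and July 2016, 79 of the 2680 faint loci (2.95%) differed at an adjusted p under 0.05, against 5.77% of the 16733 loci tested (limma on log2(FPKM + 0.1), session and sex as terms, Benjamini-Hochberg over all tested loci). Of the faint loci 44 were higher in June 2017 (1.64%, against 1.86% of all tested loci) and 35 were lower (1.31%, against 3.90%). The share of faint loci called was thus below the background, most of all among falls. The standard error of a faint locus was larger, with a median of 0.407 on the log2 scale against 0.198 over all tested loci. The called faint loci differed 2.46-fold in the median, and the smallest difference called was 0.789 on the log2 scale. In a model of these sessions alone, 45 were called, 43 of them among the 79, and the share of all tested loci called there was not counted. The median log2 difference over all faint loci was -0.00365, against -0.0391 over all tested loci. The 44 loci that were higher lay on 33 scaffolds and the 35 that were lower on 25, and no called locus was the direct neighbour of another.

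**Figure D4:**
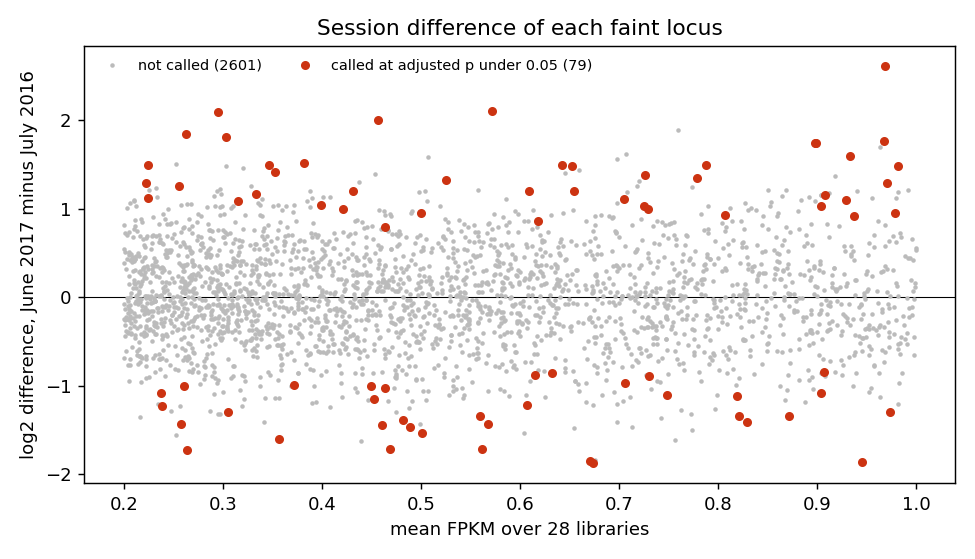
Log2 difference of FPKM + 0.1, June 2017 minus July 2016 (vertical axis), against the mean FPKM over 28 libraries (horizontal axis) for each of the 2680 faint loci. The 79 called loci (red) lie at all levels of the range and on both sides of 0.

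The rise with the greatest size was at positions 38139340 to 38266933 of scaffold NW_017842794.1, a locus of 127594 bases that overlaps another with a mean of 0 FPKM. It held 1.64 ± 0.922 FPKM in June 2017 (SD, n = 11; lowest 0.647, median 1.13, highest 3.45) and 0.221 ± 0.220 FPKM in July 2016 (n = 9; lowest 0.0372, median 0.125, highest 0.722). Only July 2016 female 6, at the top of its session, lay above the lowest June 2017 value. The log2 difference was 2.62 (SE 0.387, limma adjusted p = 0.000244), the smallest adjusted p among the faint loci.

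A second long locus, of 122173 bases at positions 69529958 to 69652130 of NW_017844625.1, rose to 0.789 ± 0.404 FPKM in June 2017 (SD, n = 11; 0.189 to 1.40, median 0.709), against 0.20 ± 0.286 in July 2016 (n = 9; 0.00844 to 0.942, median 0.131). The groups overlapped through July 2016 female 1, which held 0.942 FPKM when the other 8 July libraries held at most 0.214. Its log2 difference was 2.11 (SE 0.342, limma adjusted p = 0.000545). This locus overlaps another, with a mean of 0.156 FPKM.

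The steepest falls were at a pair of short loci. At positions 46821571 to 46823969 of NW_017843712.1, a locus of 2399 bases held 0.328 ± 0.530 FPKM in June 2017 (SD, n = 11; 0 to 1.89, median 0.165) and 1.24 ± 0.782 in July 2016 (n = 9; 0.179 to 2.47, median 1.03). June 2017 female 8 alone lay above the July median, at 1.89 FPKM, and June 2017 male 1 was listed at 0. On the log2 scale it differed by -1.88 (SE 0.516, limma adjusted p = 0.0280). This call was lost without July 2016 female 5 (adjusted p = 0.0557) or July 2016 female 6 (0.0521), among females alone (0.0607), in a model of these sessions alone (0.0600) and with relative depth as a covariate (0.0658).

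At positions 16346353 to 16348199 of NW_017842794.1, a locus of 1847 bases held 0.517 ± 0.548 FPKM in June 2017 (SD, n = 11; 0.0326 to 1.75, median 0.383) and 1.67 ± 1.07 in July 2016 (n = 9; 0.433 to 3.36, median 1.39). The groups overlapped in the range from 0.433 to 1.75 FPKM. On the log2 scale the difference was -1.86 (SE 0.438, limma adjusted p = 0.0118).

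A further called locus is named here because its June 2017 and July 2016 values did not overlap. It falls outside the rule for named loci. How often values did not overlap among all tested loci was not counted, so the lack of overlap is a description only. At positions 42575908 to 42580962 of NW_017842794.1, a locus of 5055 bases held 0.208 ± 0.102 FPKM in June 2017 (SD, n = 11; 0.0657 to 0.366) and 0.837 ± 0.411 in July 2016 (n = 9; 0.403 to 1.70). Its log2 difference was -1.47 (SE 0.325, limma adjusted p = 0.00778).

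Between September 2017 and July 2016, 9 faint loci (0.336%) were called, against 1.33% of all tested loci. Of these 8 were higher in September 2017 (0.299%, against 0.490%) and 1 was lower (0.0373%, against 0.843%). Under quantile normalization 11 were called, 4 of them higher. The median log2 difference of the faint loci was 0.144, against 0.0173 over all tested loci, but it was -0.0144 under quantile normalization, so the direction of the median turned with the scaling. This comparison shares the July 2016 libraries with the one of June 2017. Among females alone 5 were called, 4 of them among the 9, and 0 were called by limma in a model of these sessions alone, where 222 had an unadjusted p under 0.05. With all 28 libraries 253 had an unadjusted limma p under 0.05 (9.44%, against 14.0% of all tested loci). The count was 3 without September 2017 female 3, 5 without September 2017 female 2 and 14 without June 2017 male 1. For these other settings the share of all tested loci called was not counted.

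The locus of NW_017844625.1 described above was also called here: it held 0.693 ± 0.426 FPKM in September 2017 (SD, n = 8; 0.0990 to 1.5, median 0.605), against 0.20 ± 0.286 in July 2016 (n = 9), a log2 difference of 2.04 (SE 0.379, limma adjusted p = 0.00575). That call did not pass in a model of these sessions alone (adjusted p = 0.0764). The locus of 127594 bases on NW_017842794.1 held 0.892 ± 0.555 FPKM in September 2017 (SD, n = 8) against 0.221 ± 0.220 in July 2016 (n = 9), a log2 difference of 1.80 (SE 0.429, limma adjusted p = 0.0304).

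The other large rise was at positions 786630 to 804078 of NW_017842840.1, a locus of 17449 bases with 2.15 ± 2.76 FPKM in September 2017 (SD, n = 8; 0.354 to 8.61, median 1.21) and 0.239 ± 0.113 in July 2016 (n = 9; 0.106 to 0.397, median 0.225). A single animal, September 2017 male 1, held 8.61 FPKM, and the lowest September value was within the July range. This faint locus overlaps another locus with a mean of 2.51 FPKM, and whether they share fragments cannot be told. The log2 difference was 1.96 (SE 0.490, limma adjusted p = 0.0390). The call was lost without any 1 of 9 libraries, with adjusted p up to 0.0966: September 2017 females 1, 2 and 3 and July 2016 females 1, 3, 6, 7, 8 and 9. It was also lost with a pseudocount of 0.5 (0.0671) or 1 (0.0960), under quantile normalization (0.0644) and in a model of these sessions alone (0.133). In June 2017 this locus held 0.768 ± 0.415 FPKM (n = 11) and was not called against July 2016 (log2 difference 1.21, limma adjusted p = 0.104).

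The only faint locus called lower in September 2017 was at positions 3563789 to 3597579 of NW_017844429.1, which spans 33791 bases and overlaps another locus with a mean of 0 FPKM. It held 0.256 ± 0.232 FPKM in September 2017 (SD, n = 8; 0.0461 to 0.609, median 0.169) and 1.13 ± 0.593 in July 2016 (n = 9; 0.509 to 2.46, median 0.891). A pair of September females, at 0.592 and 0.609 FPKM, lay above the lowest July value. The log2 difference was -1.99 (SE 0.417, limma adjusted p = 0.0127), and the call was lost among females alone (adjusted p = 0.0533) and in a model of these sessions alone (0.0936). It was also called lower in June 2017, with 0.317 ± 0.318 FPKM (n = 11), a log2 difference of -1.71 against July 2016 (SE 0.376, limma adjusted p = 0.00733).

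**Figure D5:**
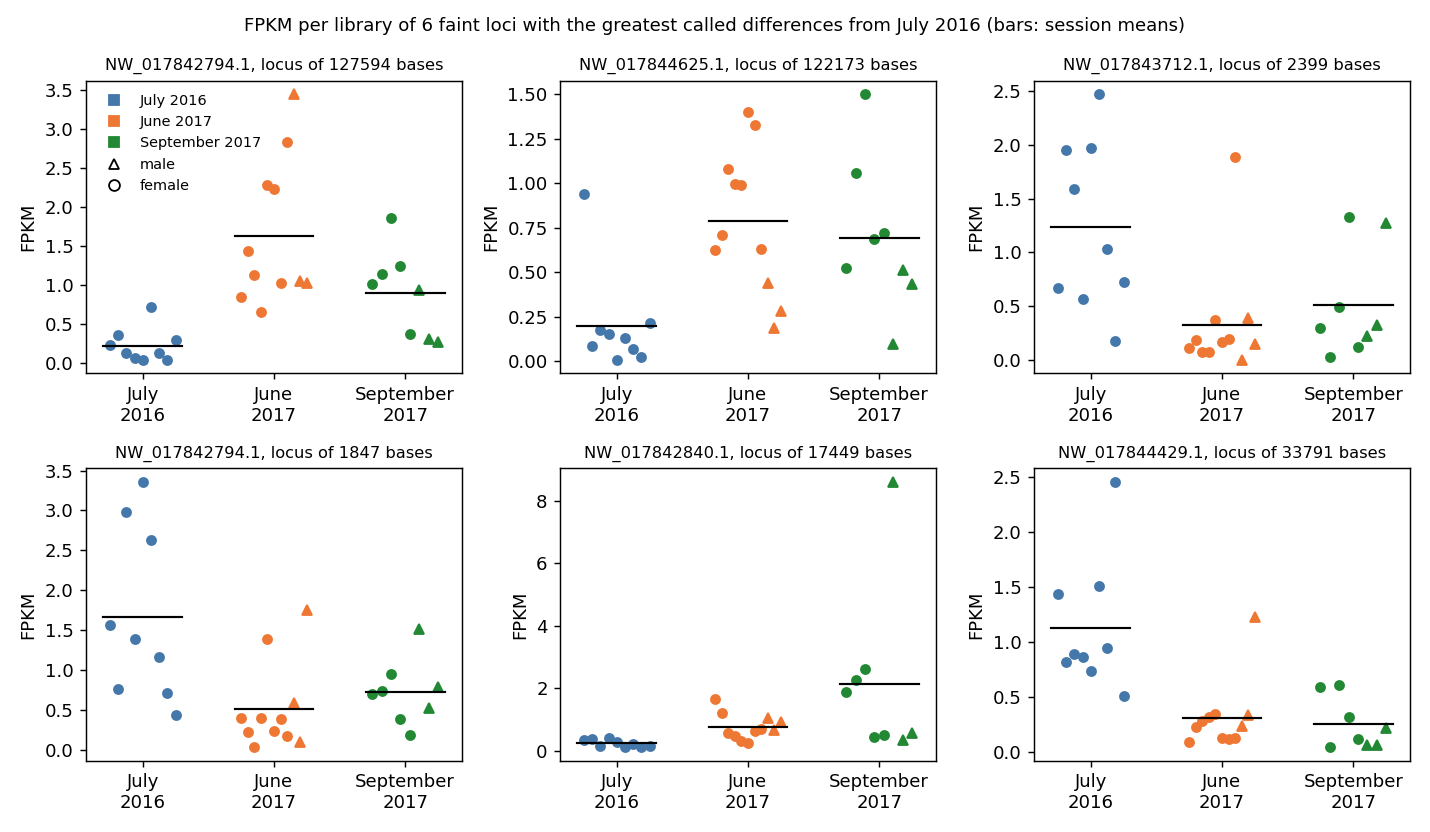
FPKM per library (vertical axes) of 6 faint loci with the greatest called rises and falls against July 2016, by session (July 2016 n = 9, June 2017 n = 11, September 2017 n = 8), with session means as bars, triangles for males and circles for females. At each locus the July 2016 mean lies on one side of both 2017 means, and single libraries overlap between sessions.

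Between September 2017 and June 2017, 0 faint loci were called by limma, against 0.0239% of all tested loci. An unadjusted limma p under 0.05 was found at 227 of them (8.47%, against 11.1% of all tested loci). The median log2 difference of the faint loci was 0.128, against 0.0501 over all tested loci, and -0.0226 under quantile normalization. The smallest p of a rise was at positions 6323904 to 6381449 of NW_017844527.1. That locus held 1.21 ± 0.293 FPKM in September 2017 (SD, n = 8; 0.664 to 1.47, median 1.28) and 0.344 ± 0.413 in June 2017 (n = 11; 0 to 1.23, median 0.185), where 3 libraries were listed at 0. Its log2 difference of 2.11 (SE 0.419) missed the threshold (limma adjusted p = 0.0515), and it passed in 7 of the 28 refits that left out a library and in 4 of the 15 other settings. This faint locus overlaps another locus with a mean of 3.29 FPKM, and whether they share fragments cannot be told.

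The smallest p of a fall between those sessions was at positions 10021241 to 10031231 of NW_017842421.1, a locus whose mean in June 2017 was above those of the other sessions. It held 0.36 ± 0.148 FPKM in September 2017 (SD, n = 8; 0.261 to 0.705, median 0.315) and 0.734 ± 0.175 in June 2017 (n = 11; 0.403 to 0.941, median 0.768). The log2 difference was -0.89 (SE 0.242, limma adjusted p = 0.133), so it was not called. Against July 2016, at 0.339 ± 0.210 FPKM (n = 9), the June 2017 level was called higher (log2 difference 0.95, SE 0.243, limma adjusted p = 0.0195).

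Between the sexes, 0 faint loci were called by limma, against 0.0717% of all tested loci. An unadjusted limma p under 0.05 was found at 172 of them (6.42%, against 5.17% of all tested loci). With 6 males the median standard error was 0.430 on the log2 scale. Against July 2016 it was 0.407 for June 2017 and 0.451 for September 2017. Differences of the size called between sessions could be missed in any of these comparisons, and the part of precision in the counts was not tested. The locus at 4149040 to 4448562 of NW_017844586.1 had the smallest p of those higher in males, with 0.882 ± 0.819 FPKM in males (SD, n = 6; 0.0926 to 1.99, median 0.658) and 0.101 ± 0.0770 in females (n = 22; 0 to 0.347, median 0.0825). Males differed by 1.79 on the log2 scale (SE 0.427, limma adjusted p = 0.193), and 3 of the 6 males were within the range of females.

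The smallest p of those lower in males was at positions 12412517 to 12414343 of NW_017842757.1, with 0.424 ± 0.245 FPKM in males (SD, n = 6; 0.124 to 0.774, median 0.411) and 1.03 ± 0.843 in females (n = 22; 0.160 to 2.78, median 0.551). Its log2 difference was -1.54 (SE 0.365, limma adjusted p = 0.193). The July 2016 females, at 0.350 ± 0.140 FPKM (n = 9), lay below the mean of all females, and this locus was called higher in June 2017 than in July 2016 (log2 difference 1.75, SE 0.345, limma adjusted p = 0.00309).

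The change between September and June 2017 was also compared between males and females. Here 0 faint loci were called by limma, against 0% of all tested loci, with a median standard error of 0.861. An unadjusted limma p under 0.05 was found at 140 of them (5.22%, against 4.14% of all tested loci). At positions 18729009 to 18741972 of NW_017842229.1, 3 September 2017 males held 0.0830, 0.123 and 0.140 FPKM and the 3 June 2017 males 0.559, 2.77 and 4.46 FPKM. The 5 September 2017 females ran between 0.272 and 2.09 FPKM and the 8 June 2017 females between 0 and 1.56 FPKM. The change in males minus that in females was -4.58 on the log2 scale (SE 1.02, limma adjusted p = 0.922), the smallest p of those with a lower change in males. The smallest p of those with a higher change in males was at positions 7699471 to 7795885 of NW_017844411.1, with 0.437, 0.317 and 0.793 FPKM in September 2017 males and 0.134, 0.104 and 0.132 FPKM in June 2017 males. Its difference was 2.21 (SE 0.624, limma adjusted p = 1.0), and neither locus was called.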

How the data were processed

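Total RNA was extracted from skin with a lipid tissue kit and DNase digestion, and Illumina libraries that keep strand were prepared, per the labels' protocols. Tools in the submitters' processing notes are Cufflinks 2.2.1, TopHat2 2.1.1, Bowtie, Trimmomatic 0.33 and FastQC. The assembly, per the series' design text, was NIST Tur_tru v1. Settings of the tools and the annotation were not stated. The authors deposited 1 value per locus and library, taken to be FPKM because Cufflinks makes that unit, the values are not whole and the table names no unit. A value of 0 may be a failed estimate, hence the last criterion for members. Row starts count from 0 and are given from 1.

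Columns were matched to samples by title. The title of July 2016 female 6 carries another year than its date, and the date was used. The 16733 loci averaging 0.2 FPKM or more were tested with limma 3.58.1 in R 4.3.3 on log2(FPKM + 0.1), which understates changes of low loci, with session and sex as terms (24 residual degrees of freedom, trend and robust, two-sided). A model with 5 groups, each a session and sex, gave the difference of the change between sexes. P-values were adjusted over all tested loci and called under 0.05. Named loci are the 2 largest called differences in each direction per comparison, or the smallest p where none was called, and the extremes of mean, length and spread. The members and lists were chosen with earlier results of these data known.

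Total reads are unknown. Relative depth came from ratios of low values at 4752 loci, with a largest error between pairs of libraries of 0.00807 on the log2 scale. A step was accepted where at least 90% of the values above 0 below the locus median lay within 0.1 of a whole multiple. This criterion (the second of 2 tried), the limit of 25% and the sum without single-library loci were chosen after the values were seen. The depth estimate and the model were tested on simulated data. Alternatives were other pseudocounts, filters, scalings, covariates, subsets of libraries and variance models. Figures were drawn with matplotlib 3.10.9.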

Additional observations from a re-analysis of the deposited data

Results flagged for a closer look

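Among the 20 named faint loci and their summed level, 63 groups of 4 to 10 libraries were examined for a library far from all others of its group on the log2(FPKM + 0.1) scale. This was so 7 times, and each time the library was above the rest. The limit used is passed by chance in about 1 in 20 groups, but that rate does not apply here, since several of these loci were chosen for extreme or variable values.

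July 2016 female 1 held 0.942 FPKM at positions 69529958 to 69652130 of NW_017844625.1, against 0.00844 to 0.214 in the other 8 July 2016 females. June 2017 female 8 held 1.89 FPKM at 46821571 to 46823969 of NW_017843712.1, against 0.0742 to 0.372 in the other 7 June 2017 females. July 2016 female 3 held 0.874 FPKM at 10021241 to 10031231 of NW_017842421.1, against 0.204 to 0.414 in the other 8. June 2017 female 5 held 1.56 FPKM at 18729009 to 18741972 of NW_017842229.1, against 0 to 0.255 in the other 7. At 5460097 to 5461975 of NW_017844507.1, July 2016 female 9 held 1.74 FPKM against 0.0257 to 0.119 in the other 8, and September 2017 female 2 held 1.73 FPKM against 0.0512 to 0.160 in the other 4. September 2017 female 2 also held 2.49 FPKM at 302241 to 303590 of NW_017843191.1, against 0 to 0.0835 in the other 4.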

How the results depend on the processing

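The counts below are of faint loci alone. The share of all tested loci called was not counted in these settings, so the shifts cannot be read as particular to faint loci. Between June 2017 and July 2016, 57 to 84 faint loci were called when each of the 28 libraries was left out in turn. Under 15 other settings 45 to 97 were called, and the lowest, 45, came from only the libraries of the sessions compared. Between September 2017 and July 2016, the 9 calls became 3 to 14 with a library left out. They were 5 with a pseudocount of 0.5, 5 with a pseudocount of 1, 5 among females alone, 4 among members that overlap no other locus, and 0 with only the libraries of the sessions compared. Between September and June 2017 1 faint locus was called with a pseudocount of 0.5, with a pseudocount of 1, with a filter that also asks for values above 0 in 20 libraries and with equal sums over loci of at least 200 bases, and 0 to 2 were called with a library left out, with 2 without September 2017 female 1 and 1 without July 2016 female 1, June 2017 females 1, 3, 4, 6 and 7, June 2017 male 2 or September 2017 female 2. Between the sexes 0 to 1 were called with a library left out (1 without June 2017 male 2), and for the difference of the change between sexes 0 to 0. The causes of these shifts were not tested. Some settings also had fewer libraries or loci.

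The 13 differences of named loci kept their direction in all 551 cases compared with the first model. These loci were chosen for large differences or small p in the same libraries, and most cases only left out 1 library. Agreement in direction was thus largely fixed by the choice. The setting of members that overlap no other locus took the values of the first model without a refit. For named loci without overlap, agreement in that setting was therefore fixed in advance. In 23 cases a call was lost and in 12 a locus not called by the first model was called. The summed level of the faint loci without the 270 held largely by 1 library was 1248 ± 43.2 FPKM in July 2016, 1262 ± 60.1 in June 2017 and 1359 ± 63.1 in September 2017 (SD). Counting error could be estimated at the 1877 loci with a step, where it gave a median coefficient of variation of 0.295 against 0.983 observed, and not at the other 803. No paired analysis was possible because the labels carry no replicate numbers and each animal was sampled once.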

Other observations

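At some faint loci a single animal held much of the total. At 270 of the 2680 faint loci (10.1%) 1 library held 25% or more of the FPKM summed over the 28 libraries, against 103 of 3524 loci of 1 to 5 FPKM (2.92%) and 31 of 9074 loci of 5 FPKM or more (0.342%). The limit of 25% was chosen after the values were seen. June 2017 male 3 was that library at 63 of the 270, and each other library at 2 to 14 of them. The same animal led at 40 of the 103 loci of 1 to 5 FPKM and at 15 of the 31 loci of 5 FPKM or more.

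The 63 loci lay on 39 scaffolds. They held a median of 4.49 FPKM in June 2017 male 3, between 1.6 and 14.4 FPKM, while their medians over the other libraries had a median of 0.147 FPKM. Their sum was 330 FPKM in this animal and 20.5 FPKM on average in the others, with 56.4 FPKM in the highest of them. Each of the 63 loci was chosen because June 2017 male 3 held a large share of its total. A wide gap to the other libraries was therefore fixed by the choice, and these values only give its size at the 63 loci. The most one-sided was at positions 5929208 to 5978885 of scaffold NW_017842583.1, where June 2017 male 3 held 10.5 FPKM, 68.8% of the total, and the other 27 libraries between 0 and 1.22 FPKM with a median of 0.0886. This library stood apart in other measures too: its relative depth was 0.776, among the lowest, its 10 most abundant loci took 41.0% of the summed FPKM, the highest share of the 28 libraries (mean 27.6%), and its summed FPKM of 1057014 was exceeded only by June 2017 female 6. Their part in these values was not tested. The animal was sampled on day 23 of June, against days 15 and 16 for the other June 2017 males. June 2017 female 8 was sampled on day 23 as well. The same limit on the share of the total picked her library at 6 faint loci. Her summed level of the faint loci was 1264 FPKM, the lowest of June 2017. Her 10 most abundant loci took 27.8% of the summed FPKM. The part of the sampling day was not tested, and the genes behind the 63 loci were not analysed here.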
